A study of Mus musculus with 18 samples.

Results

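The right-sided lesion of mice 4 h after a photothrombotic stroke was compared with punches from the left side of the brain. The members were chosen by their labels and make up 6 of the 18 libraries of the study: 4 h lesion libraries 2, 3 and 6, and contralateral left libraries 1, 3 and 5. All mice were 9-week-old male C57BL/6 animals. Photothrombosis clots vessels by shining a laser through the skull after injection of a light-activated dye, here rose bengal at 100 mg/kg into the peritoneum. Illumination began 5 min later and lasted 15 min, at 532 nm and 40 mW from a fiber of 2 mm, centred 2 mm to the right of bregma. The 4 h group holds the focal region of the right side, punched from frozen brain where magnetic resonance images placed the lesion. The contralateral left group is described in the protocol as left sides picked at random from mice with stroke, but its labels give the disease state as sham and no time point. These left sides therefore belong to stroke mice of unknown time after the stroke, if the protocol is followed. Another group, sham right, holds the matching right-sided region of sham mice (libraries 1, 2 and 3) and is used here as a second reference. Each group has 3 libraries, and it is not stated whether any left punch came from the mouse of a lesion or a sham right library. Contralateral left and sham right both have libraries numbered 1 and 3. Because these are bulk punches, fewer cells of a type and less RNA per cell cannot be told apart.

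Blood flow stops within minutes in a clotted territory, and cells there lose energy, depolarise and misfold proteins. In the first hours, surviving cells switch on early response genes: immediate early transcription factors of the AP-1 family, heat shock chaperones under heat shock factor, and chemokines made by microglia and vessels.

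Levels are in FPKM, which corrects fragments for the length of a transcript and the total of its library, so they can be compared between genes. The summed FPKM still varied, with 466459, 438615 and 333801 in contralateral left 1, 3 and 5. It was 367706, 357456 and 312941 in 4 h libraries 2, 3 and 6, and 372779 to 395194 in sham right. Mitochondrially encoded genes held 39.0%, 33.5% and 30.2% of it in contralateral left, against 31.6%, 31.9% and 28.9% in the lesion. FPKM sums of lists below were not scaled to these totals. Differences are log2 fold changes of FPKM + 1, given with their standard error, which understate the change of genes with low FPKM. A total of 14016 genes reached 1 FPKM in at least 3 of the 18 libraries and were tested. Read totals per library were not used here, so the precision of a single value is unknown.

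The contralateral left libraries were not alike. Their mean correlations across genes with the other left libraries were 0.966, 0.964 and 0.941 for libraries 1, 3 and 5, against 0.971 to 0.979 within the 4 h lesion group. The summed FPKM of ribosomal protein genes was 7337, 6723 and 4575 in 4 h libraries 2, 3 and 6, against 12797, 13280 and 5722 in contralateral left 1, 3 and 5, and 7763 to 9042 in sham right. Left 5 thus lay below sham right and between the lesion libraries, while left 1 and 3 lay above every sham library. The libraries also differed along transcript length. Genes with over 8000 bases of exon had median log2 differences from the sham right mean of 0.00, 0.04 and 0.21 in 4 h libraries 2, 3 and 6, against -0.32, -0.33 and 0.16 in contralateral left 1, 3 and 5. Genes of 1000 bases or less showed the opposite order, with -0.04, -0.15 and -0.33 in the 4 h lesion and 0.17, 0.24 and -0.17 in contralateral left. The part of length and ribosomal protein RNA in the differences below was not tested beyond a fit centred within bins of exon length.

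**Figure D1:**
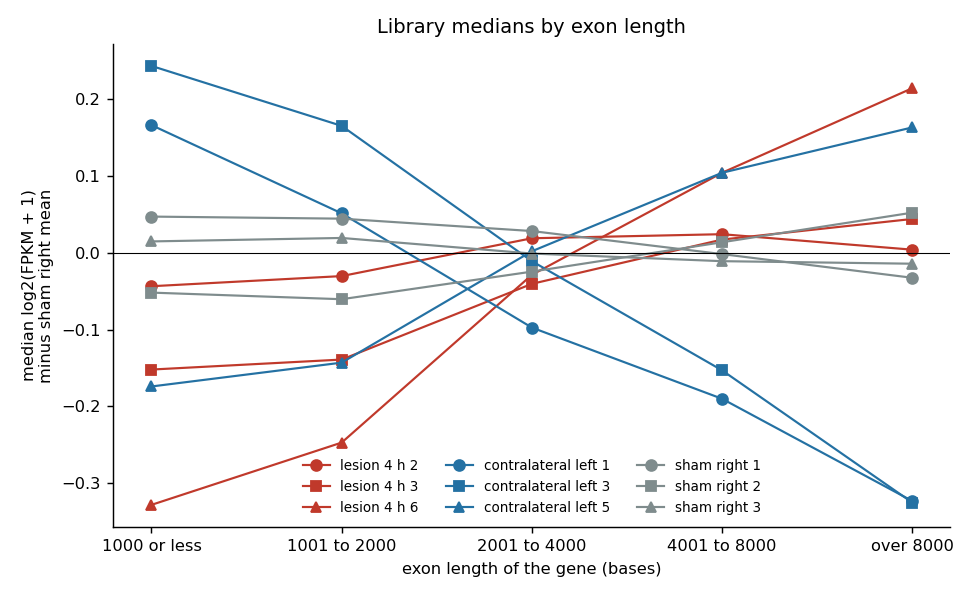
Median difference in log2(FPKM + 1) from the sham right mean for genes in 5 classes of exon length (bases); each line is 1 library (red, 4 h lesion; blue, contralateral left; grey, sham right). Contralateral left 1 and 3 slope down to -0.32 and -0.33 in the longest genes, while contralateral left 5 and 4 h library 6 slope up to 0.16 and 0.21.

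Of the 14016 genes, 176 were called between the 4 h lesion and contralateral left (limma, Benjamini-Hochberg adjusted p under 0.05), which is 1.26% of those tested. Of these, 148 were higher (1.06% of all tested) and 28 lower (0.200%) in the lesion. These shares are the background for counts of called list members over left below, unless another fit is named. The change was 1 or more on the log2 scale for 42 of the higher and 4 of the lower genes, and 169 of the 176 were protein-coding. In 175 of the 176 the lesion libraries did not overlap the left libraries. Over all tested genes the lesion lay wholly above left in 8.43% and wholly below in 6.70%. The calls were made from these same values, so their non-overlap is no separate support. The median log2 fold change of all tested genes was 0.07. Scaling each library to its sum without mitochondrially encoded genes moved this median to 0.19 and gave 164 higher and 9 lower genes.

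The number of calls depended on single libraries. It was 32, 37 and 4789 without contralateral left 1, 3 and 5, and 84, 32 and 85 without 4 h libraries 2, 3 and 6. Without left 5, 23.3% of tested genes were called higher and 10.9% lower, and all 176 were among them. A set of 29 genes (0.207% of those tested) was called in the fit of all libraries and in all 6 fits that left out a library, and all 29 were higher in the lesion. The other 147 calls, including every fall, ended in at least 1 of those fits. Centring within bins of exon length gave 254 calls, with 1.32% of genes higher and 0.501% lower; 133 of these were among the 176, and 28 of the 29 remained. The exception was Bmp3, a bone morphogenetic protein (length-centred limma adjusted p = 0.0971).

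**Figure D2:**
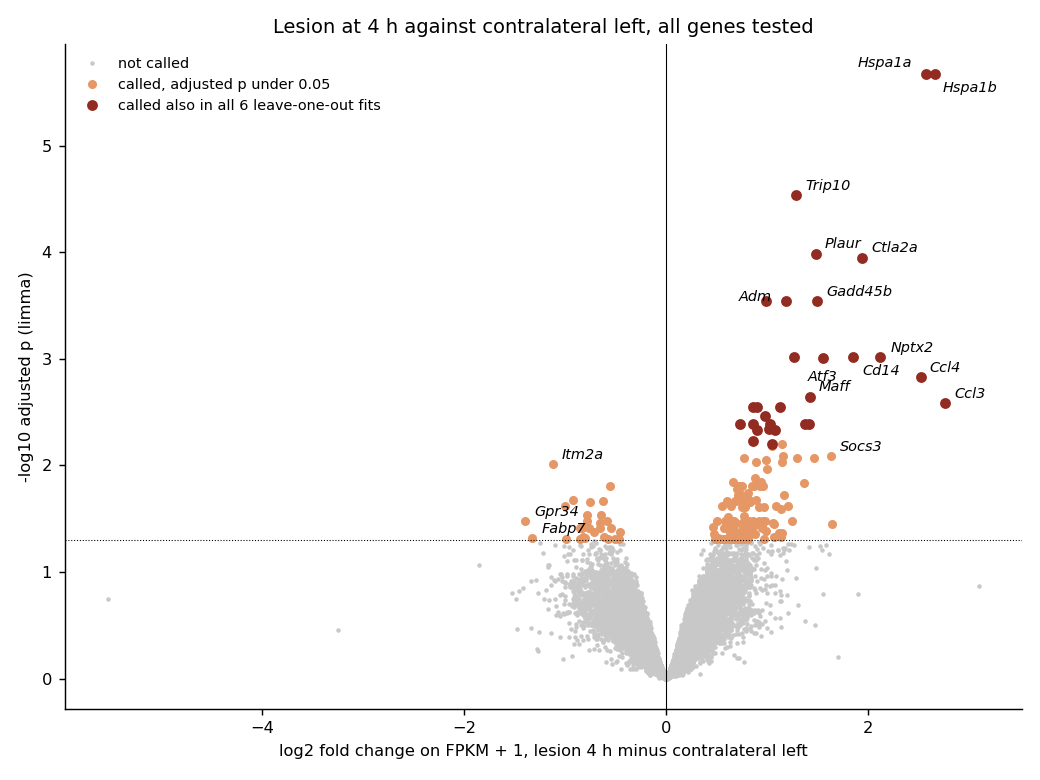
Log2 fold change on FPKM + 1 (4 h lesion minus contralateral left) against -log10 of the limma adjusted p for all 14016 tested genes; orange points are the 176 called and dark red points the 29 called also in all 6 leave-one-out fits. Hspa1a and Hspa1b stand highest, Ccl3 furthest right among the called genes, and the falls lie close to the dotted threshold of 0.05.

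The lowest adjusted p-values belonged to the inducible Hsp70 chaperones Hspa1a and Hspa1b, which refold damaged proteins and are made on demand under heat shock factor. Hspa1a was at 23.0, 24.8 and 23.0 FPKM in 4 h libraries 2, 3 and 6, against 2.74, 3.36 and 3.35 FPKM in contralateral left 1, 3 and 5 and 3.43 to 3.73 FPKM in sham right. The 3 lesion values lay within 2 FPKM of each other and far above both references. The log2 fold change over left was 2.57 ± 0.18 (SE, 3 against 3 libraries, limma adjusted p = 2.12e-06), and over sham right it was 2.44 ± 0.18. Hspa1b was at 24.97, 26.3 and 24.4 FPKM in the lesion, against 2.77, 3.25 and 3.41 FPKM in contralateral left, and rose by 2.66 ± 0.19 on the log2 scale (limma adjusted p = 2.12e-06). The 2 genes lie side by side on the minus strand of chromosome 17 (GRCm38, Hspa1a at chr17:34969190-34972156 and Hspa1b at chr17:34956436-34959238). They are near-identical, so the split of fragments between them is uncertain. Of 20 heat shock chaperones, 3 rose and none fell, where 1.06% of all tested genes rose and 0.200% fell. The list's median was 0.10, close to that of all genes. The other riser was Hspb1, the small chaperone Hsp27, at 8.32, 10.7 and 7.39 FPKM in the lesion against 3.39, 4.77 and 3.62 FPKM in contralateral left. Its log2 fold change was 0.99 ± 0.17 (limma adjusted p = 0.00881), but the call ended in 2 leave-one-out fits (0.0733 without left 1). The lesion lay wholly above left for 7 of the 20 and wholly below for 1, against 8.43% and 6.70% of all tested genes. Hspa8, a constitutive member, overlapped, at 140 to 185 FPKM in the lesion and 140 to 163 FPKM in contralateral left (log2 difference 0.10 ± 0.13).

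The promoters of the called chaperones are described here. Those of the chaperones that were not called were not searched, so a match cannot be tied to being called. The 250 bases before the gene start are given from RefSeq (GRCm38.p6), 5′ to 3′ on the gene's strand, with the heat shock element in capitals. It was searched on both strands as GAANNTTC and TTCNNGAA, and 12.84% of 32851 promoter windows of this length hold a match.
Hspa1a, chr17:34972157-34972406, minus strand: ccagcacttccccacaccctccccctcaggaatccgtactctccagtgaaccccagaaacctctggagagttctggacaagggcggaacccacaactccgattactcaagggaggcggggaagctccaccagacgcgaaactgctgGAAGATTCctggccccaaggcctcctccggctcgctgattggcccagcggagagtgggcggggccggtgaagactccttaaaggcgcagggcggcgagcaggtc
Hspa1b, chr17:34959239-34959488, minus strand: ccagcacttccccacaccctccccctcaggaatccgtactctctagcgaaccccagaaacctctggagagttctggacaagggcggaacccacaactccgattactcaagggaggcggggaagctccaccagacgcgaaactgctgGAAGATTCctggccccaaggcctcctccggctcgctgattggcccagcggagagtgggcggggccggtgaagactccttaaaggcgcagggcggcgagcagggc
Hspb1, chr5:135887669-135887918, plus strand: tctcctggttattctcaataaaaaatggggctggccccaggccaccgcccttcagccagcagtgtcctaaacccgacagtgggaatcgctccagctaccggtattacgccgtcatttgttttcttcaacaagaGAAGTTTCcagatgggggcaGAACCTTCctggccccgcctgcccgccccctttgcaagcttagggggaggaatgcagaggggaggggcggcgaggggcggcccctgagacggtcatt
The Hspa1a and Hspa1b windows differ at 3 of 250 bases, and both carry 1 element, GAAGATTC, starting at -104 from the gene start. Hspb1 carries 2 elements, at -117 and -97. A match is a description of these letters and not a measured site of binding.

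Inflammatory genes included the largest fold change of all called genes, that of Ccl3. Ccl3 and Ccl4, chemokines that microglia and macrophages release to draw in other leukocytes, lie next to each other on chromosome 11 (Ccl3 at chr11:83647844-83649355, Ccl4 at chr11:83662584-83664683). Ccl3 was at 11.1, 11.8 and 4.39 FPKM in 4 h libraries 2, 3 and 6, against 0.599, 0.306 and 0.291 FPKM in contralateral left 1, 3 and 5. Library 6 was the lowest lesion value, yet every lesion library exceeded every left one. The log2 fold change was 2.76 ± 0.39 (limma adjusted p = 0.0026). Ccl4 was at 5.73, 12.6 and 3.67 FPKM in the lesion, against 0.399, 0.200 and 0.350 FPKM in contralateral left, and rose by 2.52 ± 0.34 on the log2 scale (limma adjusted p = 0.00148). Cd14, the co-receptor that passes bacterial lipopolysaccharide and damage signals to Toll-like receptors, was at 9.77, 14.0 and 8.06 FPKM in the lesion, against 1.90, 3.34 and 1.49 FPKM in contralateral left (log2 fold change 1.85 ± 0.23, limma adjusted p = 0.000961). For these 3 genes both references were low, and left minus sham right came to 0.10 for Ccl3, 0.15 for Ccl4 and 0.23 for Cd14 on the log2 scale, none of them called.

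Of 21 chemokines, cytokines and prostaglandin enzymes, 3 rose and none fell (median 0.32), where 1.06% of all tested genes rose and 0.200% fell. Beside Ccl3 and Ccl4 it was Ptgs2, the inducible cyclooxygenase, with 5.39, 9.58 and 7.07 FPKM in the lesion against 1.90, 2.499 and 4.11 FPKM in contralateral left (1.13 ± 0.23, limma adjusted p = 0.0256). Its call ended in 4 of the 6 leave-one-out fits. Ccl2, the main monocyte chemoattractant, was at 3.14, 3.33 and 0.802 FPKM in the lesion against 0.382, 0.797 and 0.0600 FPKM in contralateral left, and just missed the threshold (limma adjusted p = 0.054). The lesion and left values of Il1b overlapped (0.310 to 1.60 FPKM and 0.365 to 0.795 FPKM). All 13 tested NF-kappaB subunits and feedback inhibitors lay above 0 (median 0.37; 12 with centring by exon length), but 1 was called, Tnfaip3, the ubiquitin-editing brake on NF-kappaB (0.48 ± 0.11, limma adjusted p = 0.0439). All 14 genes of interleukin 6 receptors and STAT3 signalling lay above 0 as well (median 0.44; 13 with centring by exon length or without left 5). Of these, Socs3, the feedback inhibitor of STAT3, was called, at 3.59, 5.36 and 6.55 FPKM in the lesion against 0.806, 0.786 and 1.298 FPKM in contralateral left (1.63 ± 0.27, limma adjusted p = 0.00815). The Socs3 call ended without left 1, left 3 or 4 h library 3 (limma adjusted p = 0.063, 0.0547 and 0.0539). Without left 5, 8 of the 13 NF-kappaB genes and 8 of the 14 STAT3 genes were called higher, where 23.3% of all genes were. With centring by exon length, none of the NF-kappaB genes and 1 of the STAT3 genes were, against 1.32% of all genes.

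Several stress-responsive transcription factors rose. Of 21 AP-1 and related factors, 5 rose and none fell (median 0.53), where 1.06% of all tested genes rose and 0.200% fell. Atf3, a stress-induced factor of the ATF family that pairs with Jun proteins, was at 3.62, 3.36 and 3.16 FPKM in the lesion, against 0.291, 0.398 and 0.854 FPKM in contralateral left (1.55 ± 0.20, limma adjusted p = 0.000977). Maff, a small Maf protein that pairs with Nrf2 and related factors, was at 4.83, 5.55 and 6.20 FPKM in the lesion, against 1.13, 1.73 and 1.48 FPKM in contralateral left and 0.261 to 1.17 FPKM in sham right (1.42 ± 0.20 over left, limma adjusted p = 0.00226). The AP-1 subunits Fosb (1.14 ± 0.19) and Fosl1 (0.70 ± 0.13) and the zinc finger factor Klf10 (0.89 ± 0.17) were also called, but each call ended in 3 or more leave-one-out fits. The prototype subunit Fos was not called: it was at 11.1, 14.7 and 15.5 FPKM in the lesion, 5.82, 7.08 and 10.14 FPKM in contralateral left and 13.6 to 17.4 FPKM in sham right. Fos in the lesion thus lay above left but within or near the range of sham right.

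RefSeq has 3 start windows for Maff. The window shown has a cyclic AMP response element, TGACGTCA, which is its own reverse complement and is bound by factors of the ATF and CREB families; 1.55% of windows hold it, and it starts at -29 here, in capitals.
Maff, chr15:79347270-79347519, plus strand: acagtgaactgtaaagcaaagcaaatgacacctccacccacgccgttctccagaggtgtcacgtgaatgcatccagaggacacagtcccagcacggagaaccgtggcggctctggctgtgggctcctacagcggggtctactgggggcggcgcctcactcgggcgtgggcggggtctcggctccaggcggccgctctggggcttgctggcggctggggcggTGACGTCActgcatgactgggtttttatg
Of 11 called heat shock, AP-1 and metallothionein or Nrf2 list members, 8 were matched in the promoter table used, and among their windows this one alone held that element. The other windows outside the chaperones are not shown. The AP-1 site TGANTCA, held by 6.75% of windows, was matched in Srxn1 alone, starting at -102 and -45. The metal response element core TGCNCNC, held by 44.41% of windows, was matched in at least 1 window of each of these genes except Fosb. That share counts single windows, while Maff has 3 and its window shown holds no match, so it cannot be set against the count of genes. The promoters of Fosl1, Klf10 and Gclc were not analysed here.

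Growth arrest and cell death genes were represented by Gadd45b and Pmaip1. Gadd45b, a stress sensor that acts on MAP kinases and DNA demethylation, was at 14.0, 19.1 and 16.1 FPKM in the lesion, against 5.42, 5.19 and 4.81 FPKM in contralateral left (1.49 ± 0.17, limma adjusted p = 0.000286). Pmaip1, the BH3-only death protein Noxa, was at 3.37, 3.70 and 3.22 FPKM in the lesion, against 1.31, 1.16 and 1.66 FPKM in contralateral left (0.90 ± 0.14, limma adjusted p = 0.00468). These were the 2 called of 20 p53 targets and cell death genes (median 0.29), where 1.06% of all tested genes rose. Cdkn1a, the cell cycle inhibitor p21, was at 25.7, 31.2 and 47.3 FPKM in the lesion, against 8.03, 8.29 and 25.1 FPKM in contralateral left and 4.78 to 6.68 FPKM in sham right, and was not called over left (limma adjusted p = 0.0584).

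Genes of vessels, clotting and low oxygen followed. Ctla2a, a cysteine protease inhibitor gene of the mouse, was at 18.7, 23.3 and 18.8 FPKM in the lesion, against 4.75, 4.59 and 4.21 FPKM in contralateral left and 2.13 to 2.70 FPKM in sham right. The 3 groups did not overlap, with left in between; the log2 fold change over left was 1.94 ± 0.20 (limma adjusted p = 0.000112), and left minus sham right (0.72) was not called. Angpt2, a ligand that loosens vessel contacts, rose by 1.14 ± 0.18 (limma adjusted p = 0.00628). This made 2 of 6 endothelial activation genes called, where 1.06% of all tested genes rose. Plaur, the urokinase receptor that focuses plasmin on the cell surface, was at 2.85, 2.46 and 3.64 FPKM in the lesion against 0.313, 0.449 and 0.488 FPKM in contralateral left (1.48 ± 0.15, limma adjusted p = 0.000103). It was the 1 called of 13 clotting and plasminogen genes. Adm, the vasodilator peptide adrenomedullin and a classic target of low oxygen, was at 3.70, 3.97 and 3.11 FPKM in the lesion against 0.880, 0.924 and 1.24 FPKM in contralateral left (1.19 ± 0.13, limma adjusted p = 0.000286). Slc2a3, the neuronal glucose transporter, rose by 1.21 ± 0.24 (limma adjusted p = 0.0241, ending without left 1 at 0.180). So 2 of 20 hypoxia and glycolysis genes were called (median 0.30), where 1.06% of all tested genes rose. Vegfa, another well-known hypoxia target, overlapped between the groups, with 6.83 to 9.20 FPKM in the lesion and 5.71 to 7.74 FPKM in contralateral left.

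Among neuronal genes, Nptx2 had the largest change. It encodes neuronal pentraxin 2, a secreted protein that clusters AMPA receptors and is induced by activity. It was at 39.5, 63.0 and 39.1 FPKM in the lesion, against 8.10, 9.39 and 12.4 FPKM in contralateral left and 10.6 to 13.8 FPKM in sham right. All lesion libraries were well above both references (2.12 ± 0.27 over left, limma adjusted p = 0.000961). It was the 1 called of 20 neuronal activity genes (median 0.27). Arc, a synaptic immediate early gene, was at 36.7, 46.1 and 34.6 FPKM in the lesion and 45.5, 39.2 and 41.3 FPKM in contralateral left, with 70.6 to 91.6 FPKM in sham right. Lesion and left overlapped for Arc, and both lay below sham right. Left was wholly below sham right for 7 of the 20 activity genes, against 8.29% of all tested genes.

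**Figure D3:**
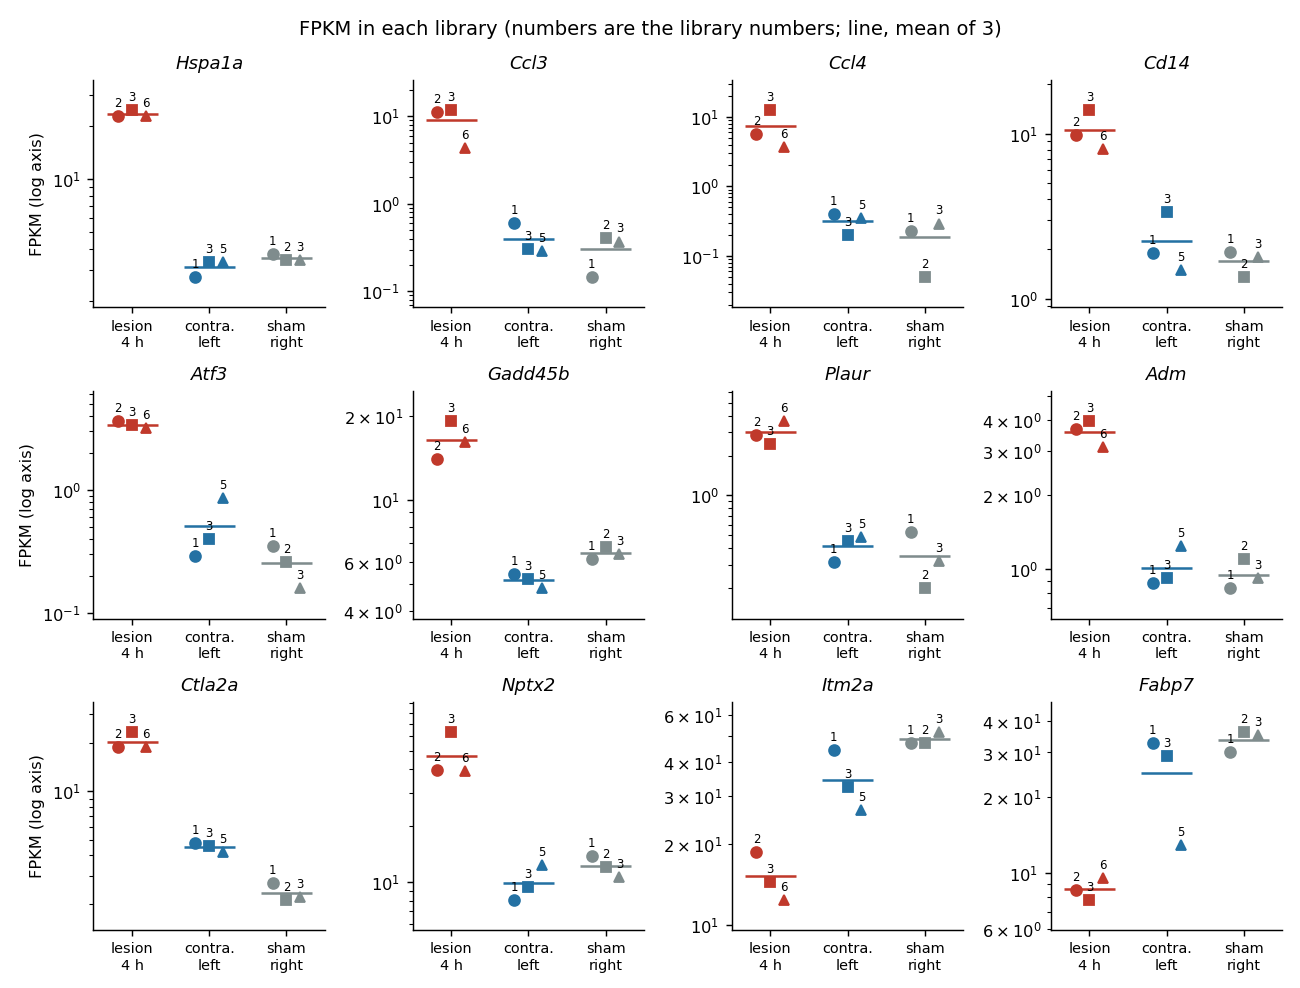
FPKM on a log axis in each library of the 4 h lesion (red), contralateral left (blue) and sham right (grey) for 12 genes; numbers are library numbers and lines are means of 3. Hspa1a, Ccl3, Ccl4 and Nptx2 are high in all lesion libraries alone, while Fabp7 at 12.8 FPKM in contralateral left 5 lies close to the lesion values of 7.82 to 9.52 FPKM.

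The rest of the 29 had varied roles. Trip10, an F-BAR adaptor of Cdc42 that shapes membranes, was at 4.89, 5.48 and 4.24 FPKM in the lesion against 1.33, 1.46 and 1.41 FPKM in contralateral left. Its adjusted p was the lowest after the Hsp70 genes (1.29 ± 0.11, limma adjusted p = 2.89e-05). Wnt10a, a secreted Wnt ligand, was at 7.92, 9.54 and 6.48 FPKM in the lesion against 2.31, 2.79 and 3.03 FPKM in contralateral left (1.27 ± 0.16, limma adjusted p = 0.000961). Tubb6, a beta-tubulin, was at 5.92, 6.55 and 4.91 FPKM against 1.45, 1.51 and 1.87 FPKM in contralateral left. In both, every lesion library was above every left library. Ppm1h, a protein phosphatase, was at 11.1, 14.7 and 8.87 FPKM in the lesion against 4.82, 4.65 and 5.88 FPKM in contralateral left. The log2 fold changes of the remainder ran from 0.73 to 1.41. These were Depp1, a FOXO target gene (1.41 ± 0.22), Ccnf (cyclin F) and Cdt1 (a DNA replication licensing factor), the serine protease gene Htra4, and Lrrc32, which displays latent TGF-beta on cell surfaces. The others were the noncoding RNA Mir670hg, Gm8773, the zinc finger gene Zbtb1, the interleukin 17 receptor subunit Il17rb, endothelial lipase (Lipg), Bmp3 and Osgin2 (0.73 ± 0.11). Akap12, a scaffold of protein kinase A, had a larger log2 fold change (1.65 ± 0.35, limma adjusted p = 0.0356) but less even values. It was at 8.23, 11.1 and 24.6 FPKM in the lesion against 2.75, 2.41 and 6.33 FPKM in contralateral left, and the call ended in 4 leave-one-out fits.

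Falls were fewer in this fit, 28 against 148 rises. The largest non-overlapping one was that of Fabp7, the brain fatty acid binding protein of astrocytes and progenitors, at 8.53, 7.82 and 9.52 FPKM in the lesion against 32.6, 29.0 and 12.8 FPKM in contralateral left and 30.0 to 36.1 FPKM in sham right. Left 5 lay between the other left libraries and the lesion (-1.33 ± 0.31, limma adjusted p = 0.0482), and the call ended in 5 leave-one-out fits. Itm2a, which encodes an integral membrane protein found in endothelium, was at 18.6, 14.5 and 12.4 FPKM in the lesion against 44.5, 32.4 and 26.6 FPKM in contralateral left and 47.0 to 51.7 FPKM in sham right. It fell by 1.12 ± 0.19 on the log2 scale (limma adjusted p = 0.00979), and of the named falls it held in the most leave-one-out fits, 4 of 6 (largest adjusted p = 0.0733, without left 1). The other 10 of the 12 largest falls ran from -1.01 to -0.78. They were Ccdc190, Tgfa (a ligand of the EGF receptor), Ttpa (the vitamin E transfer protein), S100b (an astrocytic calcium-binding protein), Macrod2, Sparc (a matricellular protein), Slc25a18 (a mitochondrial glutamate carrier), Nrep, Spa17 and Ednrb (the endothelin B receptor). Macrod2 and S100b were at 1.73 to 1.99 and 64.0 to 88.5 FPKM in the lesion. In contralateral left they were at 3.55 to 4.77 and 91.3 to 169 FPKM, and in sham right at 1.75 to 2.17 and 87.7 to 101 FPKM. For Macrod2 the lesion lay near the sham range and left above it.

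Homeostatic astrocyte genes were lower in the lesion as a list. Of 18 such genes, 2 fell (Fabp7 and S100b), all 18 had a log2 difference below 0 (median -0.41), and 11 had lesion values wholly below left, against 6.70% of all tested genes. With other scalings 16 to 18 of them lay below 0. Aqp4, the endfoot water channel aquaporin 4, was at 20.4, 16.5 and 18.7 FPKM in the lesion against 34.6, 32.9 and 26.1 FPKM in contralateral left and missed the threshold (-0.71 ± 0.17, limma adjusted p = 0.0513). Without left 5, 10 of the 18 were called lower, where 10.9% of all genes were, and with centring by exon length 4 were, where 0.501% of all genes were. With median-of-ratios scaling 1 was, since S100b then missed the threshold (limma adjusted p = 0.0516). The list's summed level was 1085 to 1148 FPKM in the lesion, 1255 to 1722 FPKM in contralateral left and 1221 to 1374 FPKM in sham right. These sums were not scaled to the FPKM total of each library, which was higher in left 1 and 3 than in the lesion. None of 17 reactive astrocyte genes was called (median 0.31), and Gfap, the intermediate filament of reactive astrocytes, was at 47.5 to 68.3 FPKM in the lesion and 41.9 to 77.2 FPKM in contralateral left.

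The homeostatic and activated microglial lists had 1 called gene each, in opposite directions. Over all tested genes 1.06% were called higher and 0.200% lower. Of 12 homeostatic microglia genes, 11 lay below 0 (median -0.49) and 1 was called, Gpr34, a lysophosphatidylserine receptor. Gpr34 was at 5.84, 3.17 and 2.30 FPKM in the lesion against 16.3, 13.7 and 5.76 FPKM in contralateral left (-1.40 ± 0.29, limma adjusted p = 0.0334). It was the single called gene whose groups overlapped, since left 5 lay within the lesion range. Of 16 activated microglia and complement genes Cd14 alone was called (median -0.04). The summed level of the homeostatic list was 90.6 to 116 FPKM in the lesion, 112 to 179 FPKM in contralateral left and 124 to 154 FPKM in sham right. It was likewise not scaled to the FPKM totals of the libraries.

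Endothelial genes were split. Of 18 brain endothelial and barrier genes, Itm2a fell and Cdh5, the adhesion molecule VE-cadherin, rose (1.14 ± 0.26, limma adjusted p = 0.0429, at 3.27, 4.10 and 8.17 FPKM in the lesion against 1.43, 1.04 and 2.74 FPKM in contralateral left). The list's median was -0.19 over left, and that of left minus sham right was -0.45, with left wholly below sham for 10 of 18 genes, against 8.29% of all tested genes. Over sham right, 6 of the 18 were called lower in the lesion and none higher, where the background was 0.863% lower and 1.32% higher. The fits over left and over sham right share the lesion libraries.

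The left side itself differed from sham right in few genes by the test: 4 of 14016 (0.0285%) were called, Tekt4, Sult1a1, Brinp3 and Smim3, and 1077 had an unadjusted p under 0.05. The count was 0 to 1213 when single libraries were left out, the highest without left 5. Glucocorticoid-responsive genes, which corticosterone switches on in many tissues, read differently against each reference. None of the 14 was called between the lesion and left (median 0.67, 13 above 0). Over sham right 12 of 14 were called higher (median 1.15), where 1.32% of all tested genes were. Left lay wholly above sham right for 11 of the 14, against 3.60% of all tested genes, with a median difference of 0.64. Fkbp5, a co-chaperone of the glucocorticoid receptor, was at 13.4, 17.96 and 23.4 FPKM in the lesion, against 6.65, 6.17 and 16.3 FPKM in contralateral left and 3.30 to 3.798 FPKM in sham right. Sgk1, a kinase induced by the hormone, was at 37.9, 32.4 and 48.3 FPKM in the lesion, against 12.9, 17.6 and 37.3 FPKM in contralateral left and 7.51 to 8.93 FPKM in sham right. In both, left 5 was close to the lesion libraries and left 1 and 3 lay nearer to sham right. Plin4, a lipid droplet coat protein, was at 5.08, 5.10 and 13.2 FPKM in the lesion, against 2.12, 1.94 and 9.12 FPKM in contralateral left and under 0.2 FPKM in all sham right libraries. Without left 5, 11 of the 14 were called higher in the lesion than in left, where 23.3% of all genes were. With centring by exon length 1 was, Klf9, where 1.32% of all genes were.

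**Figure D4:**
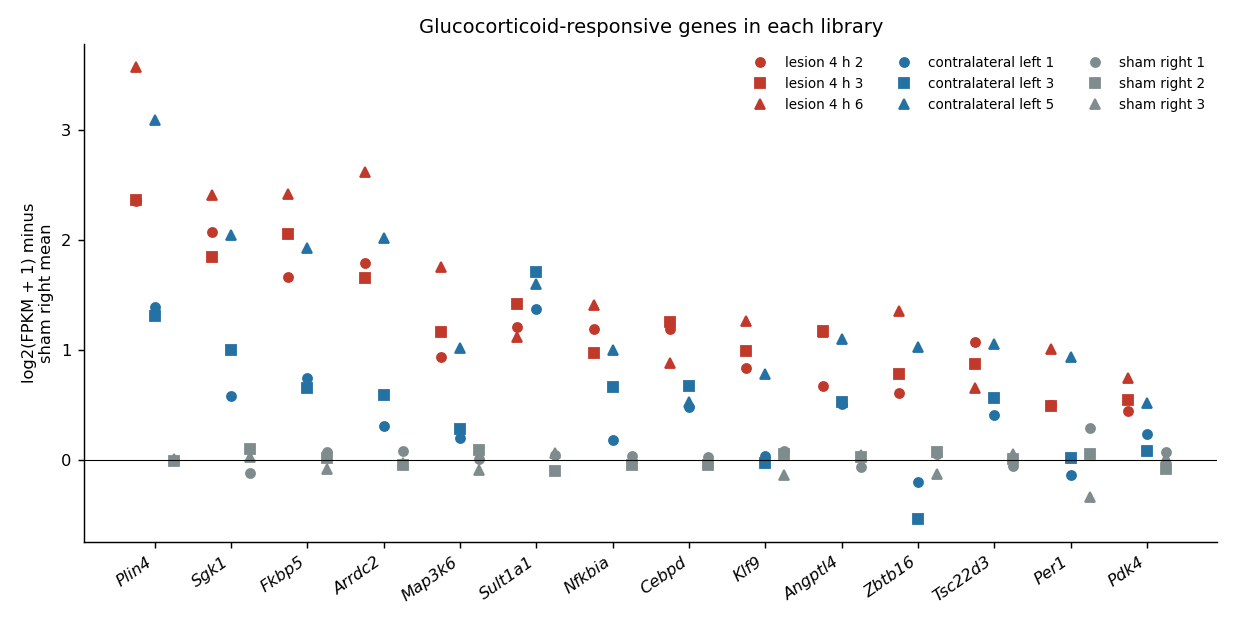
Log2(FPKM + 1) minus the sham right mean for 14 glucocorticoid-responsive genes; red, 4 h lesion; blue, contralateral left; grey, sham right, with a marker shape for each library. Lesion values lie above sham right in nearly every gene, and contralateral left 5 (blue triangles) lies near the lesion while left 1 and 3 lie lower, as for Fkbp5 at 16.3 against 6.65 and 6.17 FPKM.

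The metallothioneins Mt1 and Mt2, which bind zinc and respond to metals and to glucocorticoids, were not called over left. Mt1 was at 187, 199 and 171 FPKM in the lesion and 171, 196 and 176 FPKM in contralateral left, with 91.5 to 97.7 FPKM in sham right. Lesion and left overlapped, and both lay above every sham library. Of 14 metallothionein and Nrf2 target genes, 3 rose over left, where 1.06% of all tested genes did. They were Srxn1, sulfiredoxin (0.76 ± 0.15), Slc30a1, the zinc exporter (0.59 ± 0.12), and Gclc, of glutathione synthesis (0.83 ± 0.19). None of the 3 held in all leave-one-out fits. Hmox1, heme oxygenase, was at 12.5, 15.3 and 5.30 FPKM in the lesion against 1.63, 2.92 and 3.98 FPKM in contralateral left and did not pass (limma adjusted p = 0.0562).

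Most other lists had 1 call or none. Single rises were Errfi1 among 15 MAP kinase feedback genes, Grin2b among 19 glutamate and GABA receptor subunits, Cux2 among 14 cortical layer genes and Btg3 among 12 mRNA decay regulators. Grin2b, an NMDA receptor subunit, was at 17.5, 19.95 and 18.5 FPKM in the lesion, against 7.34, 4.72 and 14.4 FPKM in contralateral left and 15.0 to 20.8 FPKM in sham right. Its lesion values lay in the sham range, and left lay below it. Of 12 secreted growth factors 2 fell, Tgfa and Fgf1, where 0.200% of all tested genes fell. No gene was called among 20 pan-neuronal genes (median 0.16), 15 genes of the unfolded protein response (0.11), 16 circadian clock genes (0.30), 15 myelin genes (-0.03) and 14 interferon-stimulated genes (-0.03). The 16 cytosolic ribosomal protein genes (-0.55) and the 15 mitochondrially encoded RNAs (-0.32) all lay below 0 without a call, but with quantile normalization 6 of the 15 mitochondrial RNAs did. Without left 5, 12 of the 16 ribosomal protein genes were called lower, where 10.9% of all genes were.

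**Figure D5:**
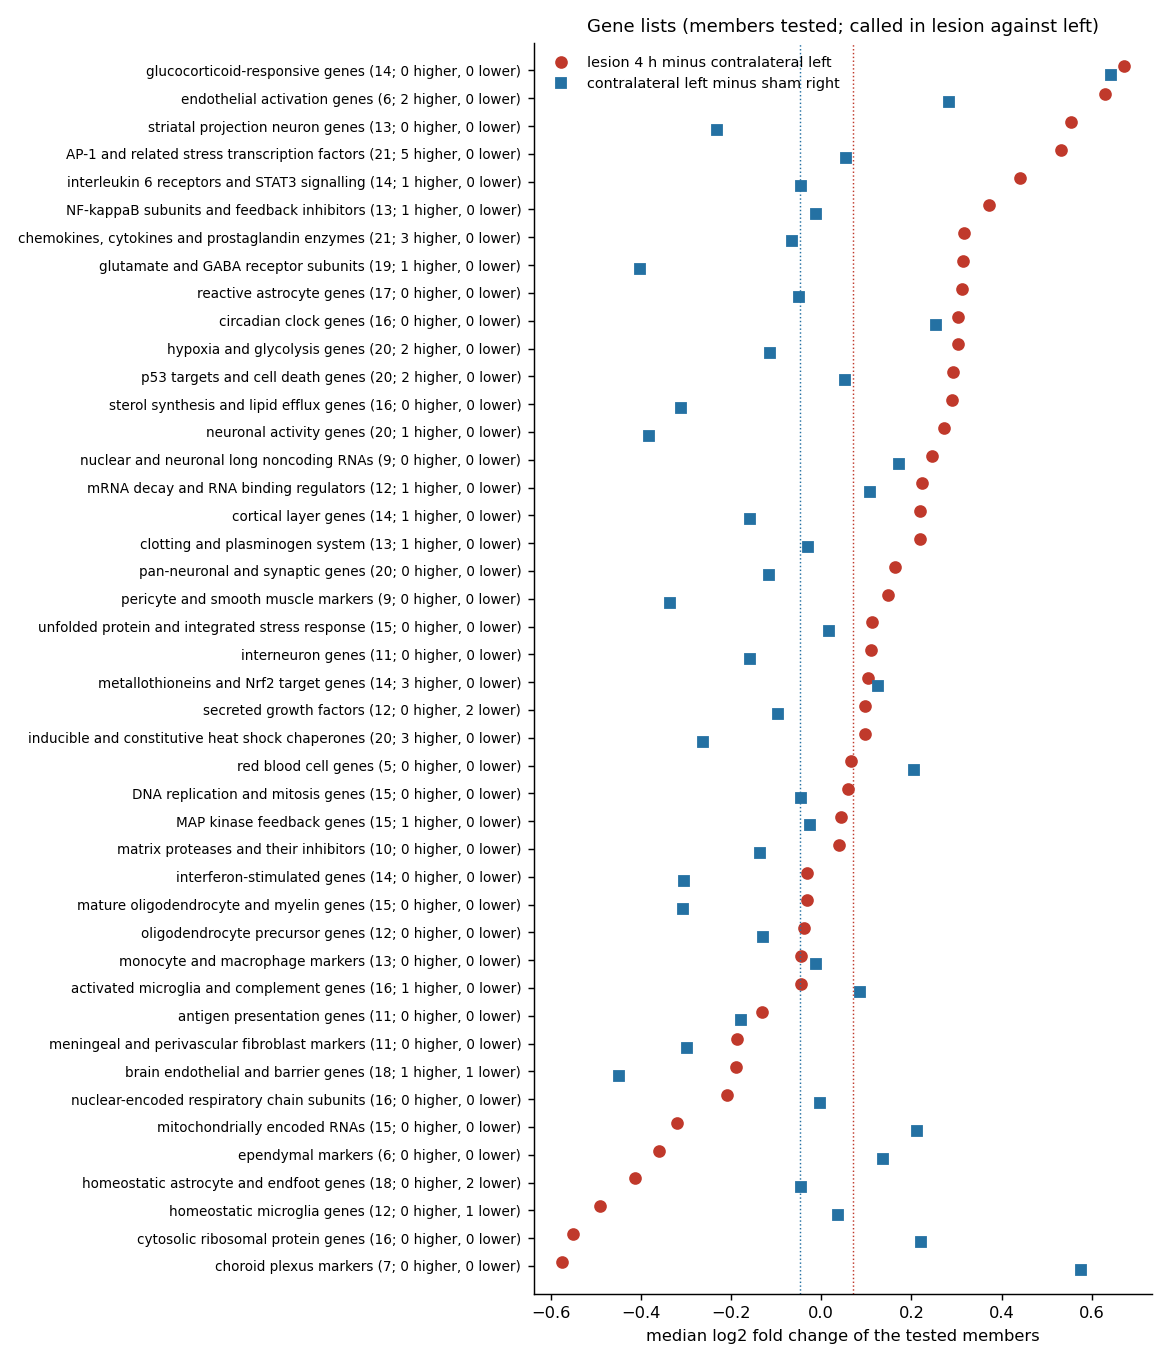
Median log2 fold change of the tested members of each list with 5 or more tested genes, for 4 h lesion minus contralateral left (red) and contralateral left minus sham right (blue); brackets give the members tested and those called in the lesion against left, and dotted lines mark the median of all genes. Glucocorticoid-responsive genes are at 0.67 and 0.64, while ribosomal protein genes are at -0.55 and 0.22.

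Markers of other cells bear on these counts as follows. Sums cover every gene of a list that was present, including those below the filter. Pan-neuronal genes summed to 2358 to 2430 FPKM in the lesion, 1886 to 2355 FPKM in contralateral left and 2116 to 2385 FPKM in sham right, so the brain origin of the punches was plain in every group. None of 13 tested monocyte and macrophage markers was called. List sums were 17.8 to 33.04 FPKM in the lesion, 18.6 to 25.5 FPKM in contralateral left and 20.7 to 29.6 FPKM in sham right. Of 13 neutrophil markers, 4 passed the filter and none was called. List totals were 9.34 to 24.9 FPKM in the lesion, 7.10 to 18.04 FPKM in contralateral left and 2.21 to 7.18 FPKM in sham right. Lymphocyte markers summed to under 3 FPKM in every library of the 3 groups, with Cd3g and Cd8a listed at 0 in all lesion and left libraries. Red blood cell genes summed to 775, 895 and 165 FPKM in the lesion, against 609, 603 and 337 FPKM in contralateral left. Striatal projection neuron genes summed to 269, 109 and 210 FPKM in the lesion, against 110, 113 and 85.2 FPKM in contralateral left, with none of 13 called. Choroid plexus genes summed to 117, 2.62 and 587 FPKM in the lesion, against 519, 546 and 385 FPKM in contralateral left. The part of these cells and of punch position in the results was not tested.

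Later lesion groups give the 29 genes a time frame, as a description, since the 4 h libraries took part in choosing them. Group means were below the 4 h mean for 28 of the 29 at 1 day, 27 at 3 days and 27 at 10 days. Hspa1a averaged 23.6 ± 1.06 FPKM at 4 h, 10.7 ± 0.692 FPKM at 1 day, 6.22 ± 1.84 FPKM at 3 days and 2.69 ± 0.945 FPKM at 10 days (SD, n = 3 each). Trip10 was at 4.87 ± 0.621 FPKM at 4 h and between 1.73 and 1.82 FPKM at the later times. Cd14 and Atf3 had similar means at all times, with Cd14 at 10.6 ± 3.04, 10.3 ± 2.33, 11.2 ± 3.09 and 9.91 ± 0.630 FPKM at 4 h, 1 day, 3 days and 10 days. Tubb6 had higher means later, from 5.79 ± 0.829 FPKM at 4 h through 10.06 ± 3.09 FPKM at 1 day to 15.5 ± 4.73 FPKM at 3 days. Fabp7, low at 4 h with 8.62 ± 0.851 FPKM, was at 161 ± 49.0 FPKM at 3 days.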

How the data were processed

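Total RNA sequencing was applied to 18 micro-punched brain samples in 6 groups. Per the submitters' processing notes, reads were handled with Trimmomatic 0.36, HISAT2 2.1.0 and StringTie 1.3.4d on mouse build GRCm38; settings, annotation and strand handling are not given in the sources used here. The authors deposited FPKM per gene and library, which depends on each library's total and assumed transcript lengths, so depth is unknown. The p-value and q-value columns that the authors deposited were not used. The copy analysed holds 34921 complete entries, of which 34797 matched a gene name. It ends inside an entry, so any genes after that point were not tested. Ahsp, Cd163, Cx3cl1, Elane, Myh11 and Sqstm1 were not analysed here. Of 20 listed glutamate and GABA receptor subunits, 19 were present. Genes near-identical to others and overlapping genes may share fragments.

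Log2(FPKM + 1) of the 14016 genes with at least 1 FPKM in 3 or more libraries was fitted with limma 3.58.1 (R 4.3.3; trend and robust), with 1 mean for each of the 6 groups, so that all 18 libraries share the estimate of spread, and Benjamini-Hochberg adjustment over all tested genes. The fit was tested on simulated data in which each gene varied independently. Those data held no shift shared by a whole library, so that test does not cover the library differences described above. Groups are 3 animals each per the labels, except that the source of the left punches is unclear: they may share mice with lesion or sham right libraries, and the fit treats all libraries as independent. The main contrast is 4 h lesion minus contralateral left; contralateral left minus sham right and 4 h lesion minus sham right are set beside it. Genes were named if they had one of the 12 highest or 12 lowest fold changes among called, non-overlapping genes with a group mean of 1 FPKM or more, if their call held in all leave-one-out fits, or if they belonged to a list. Coordinates and exon lengths are from GENCODE M21 (GRCm38). The members and the 46 gene lists were chosen with earlier results of these data known. Alternatives covered pseudocount, filter, scaling, fit and left-out libraries; leaving out left 5 with 4 h library 6 and centring within 20 bins of exon length were added after seeing the data.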

Additional observations from a re-analysis of the deposited data

Results flagged for a closer look

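A signal appeared in a gene left out of the tests by the filter on low FPKM. Mir7085, a microRNA gene of 66 bases on the plus strand of chromosome 9 (GRCm38, chr9:44400423-44400488) inside the span of Slc37a4, was listed at 0.347, 0.27 and 0.313 FPKM in 4 h libraries 2, 3 and 6. It was listed at 0 in all contralateral left libraries and at no more than 0.00217 FPKM in any other library. It was chosen after its values were seen, and a gene this short is poorly measured by FPKM.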

How the results depend on the processing

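The count for 4 h lesion against contralateral left (176) was 117 with every gene above 0 tested, 110 with a filter at 5 FPKM, 12 in a fit of the 2 groups alone, 6661 with array weights (which did not converge), 6522 without contralateral left 5 and 10 day 5, 3013 without contralateral left 5 and 4 h library 6, 444 with both references together, and 32 to 4789 when a single library was left out. It stayed within 1.5 times under the other 7 settings: 196, 150, 173 (164 higher, 9 lower), 195 (148 and 47), 183, 178 and 254, where the first is a pseudocount of 0.1 and the third leaves mitochondrial genes out of the scaling, which moved the median of all genes to 0.19. Of the 12 calls in the 2-group fit, 11 were among the 29 genes; the other was Gm45736, listed at 0 FPKM in all contralateral left libraries and at 7.65 ± 1.56 FPKM in the lesion (SD, n = 3). The count for contralateral left against sham right (4) was 0 with filters at 0.1 FPKM or none, 2 at 5 FPKM, 0 without mitochondrial genes, 2 with quantile normalization, 0 in the 2-group fit, 4227 with array weights, 2760 and 1496 without the 2 pairs of libraries above, and 0 to 1213 with a library left out. The count for 4 h lesion against sham right (306) was 156 at 5 FPKM, 761 in the 2-group fit, 2779 with array weights, 1806 without contralateral left 5 and 10 day 5, and 90 to 194 with a library left out. The causes were not tested. Over 61 genes followed, no direction reversed in any setting, 991 results held their call and 265 lost it. The 2-group fit lost more than any other single setting (50 of 61). Next came the fits without contralateral left 1 (32), 4 h library 3 (31) and contralateral left 3 (29).

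The 4 h and left groups share only the number 3 (correlation of deviations 0.295). Over 23 same-numbered pairs the correlations ran from -0.227 to 0.409, with 9 over 0.1. Over 112 pairs with other numbers they ran from -0.596 to 0.659, with 36 over 0.1. The ranges overlap, so they cannot tell whether libraries with the same number share a mouse. With the replicate block the counts were 748, 1 and 106. The 748 were 262 higher and 486 lower, so falls outnumbered rises there, against 148 higher and 28 lower without the block. The 4 h and left groups alone could not be paired, while sham right shares 2 numbers with each of them. Depth is unknown, so counting error cannot be given.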
